A study of Arabidopsis thaliana with 10 samples.

Results

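BTSL1 (AT1G74770) and BTSL2 (AT1G18910) are the BTS-like genes of Arabidopsis thaliana, named for their likeness to BRUTUS (BTS). They were taken by locus from the platform annotation, which gave each of them 1 probe set, 2 of the 28583 on the array. Their levels are described in root RNA of the wild type (WT, Col) and of the mutant bts-3, in which the labels do not state the lesion. Plants of both genotypes had 2 weeks on B5 medium and then 3 days (72 h) on medium with iron (+Fe) or without it (-Fe), and roots were separated from shoots before freezing. WT had 2 arrays on each medium and bts-3 had 3, described by the submitters as biological replicates. How many plants went into a replicate is not given in the sources used here.

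Plants sense a shortage of iron and switch on root genes that make iron soluble, reduce it and carry it into the root. BTS and the BTS-like proteins are E3 ubiquitin ligases, which mark other proteins for degradation. They share iron-binding hemerythrin domains with a RING domain, the part of such ligases that recruits the ubiquitin-carrying enzyme. They restrain the iron-deficiency response, and their own genes are induced during iron shortage. BTSL1 and BTSL2 are known to act mainly in the outer layers of the root and to target the transcription factor FIT, whereas BTS acts largely in the vascular tissue on factors upstream of FIT such as ILR3 and BHLH115.

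All values are log2 expression values made by the authors with RMA, a method that brings arrays to a common scale and joins the probes of each probe set into 1 value. Upper quartiles of the arrays lay between 7.25 and 7.39, and no value of BTSL1 or BTSL2 was below 8.73, so both were read well above the dim part of the array. A log2 difference of 1 is a doubling. The probe of BTS itself was not analysed here, so the bts-3 label was not checked by its transcript. The bts-3 -Fe arrays were the least alike: within their group they correlated at a mean r of 0.969 (replicate 1) to 0.975, where bts-3 +Fe reached 0.983 to 0.985, WT -Fe 0.982 and WT +Fe 0.991. In root tissue, fewer cells of a type and less RNA per cell cannot be told apart.

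BTSL1 was lowest in WT with iron and highest in WT without it. Its log2 values on WT +Fe were 9.55 and 9.69 (replicates 1 and 2), and on WT -Fe they were 12.07 and 11.98. On bts-3 +Fe they were 11.31, 11.58 and 10.69 (replicates 1 to 3), and on bts-3 -Fe they were 12.01, 11.60 and 10.59. The WT groups were far apart, whereas the bts-3 groups overlapped each other, and every bts-3 array was above both WT +Fe arrays. By means the order was WT -Fe, bts-3 -Fe, bts-3 +Fe and WT +Fe, at 12.02 ± 0.07 (SD, n = 2), 11.40 ± 0.73 (SD, n = 3), 11.19 ± 0.45 (SD, n = 3) and 9.62 ± 0.09 (SD, n = 2).

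BTSL2 had the same order of groups. Its log2 values on WT +Fe were 8.73 on both arrays, and on WT -Fe they were 10.83 and 10.53 (replicates 1 and 2). On bts-3 +Fe they were 9.65, 10.06 and 9.07, and on bts-3 -Fe they were 10.51, 10.43 and 8.95 (replicates 1 to 3). As for BTSL1, the bts-3 groups overlapped and every bts-3 array was above both WT +Fe arrays. Unlike BTSL1, whose bts-3 -Fe replicate 1 lay between the WT -Fe arrays, BTSL2 was lower on all 3 bts-3 -Fe arrays than on either WT -Fe array. The means were 10.68 ± 0.22 on WT -Fe (SD, n = 2), 9.96 ± 0.88 on bts-3 -Fe (SD, n = 3), 9.59 ± 0.50 on bts-3 +Fe (SD, n = 3) and 8.73 ± 0.001 on WT +Fe (SD, n = 2).

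**Figure D1:**
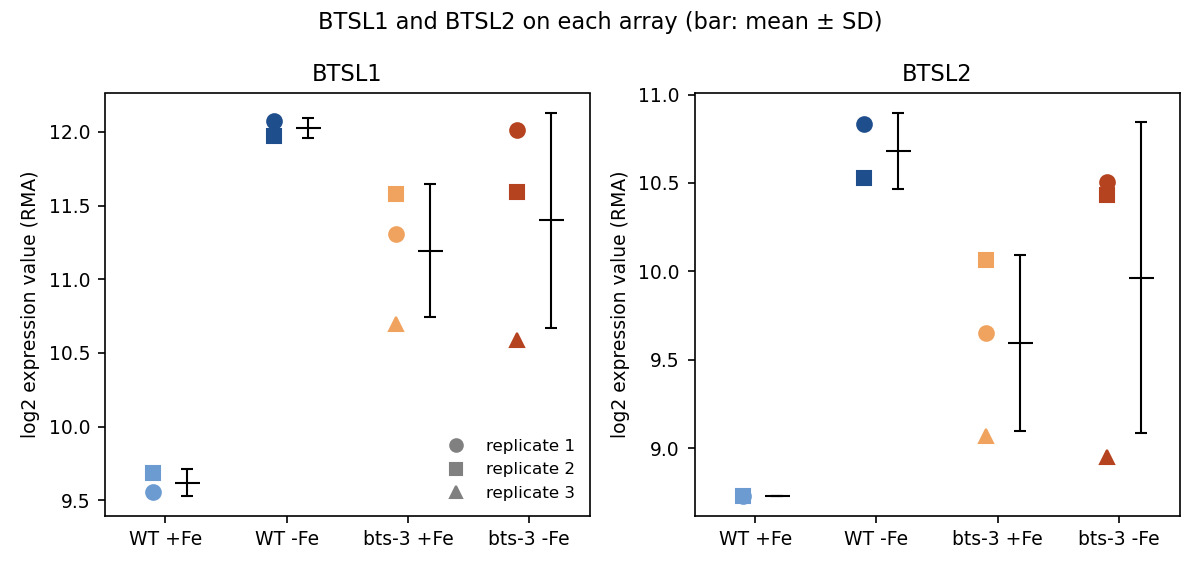
Log2 expression values (RMA) of BTSL1 (left) and BTSL2 (right) on each of the 10 arrays, by group. Symbols give the replicate number and black bars the mean ± SD (n = 2 for WT, n = 3 for bts-3). WT +Fe is the lowest group for both genes, and bts-3 replicate 3 is the lowest bts-3 array on both media.

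Both genes varied more within bts-3 than within WT. On bts-3 -Fe the SD was 0.73 for BTSL1 and 0.88 for BTSL2, where the median SD of the 17481 probe sets with a named gene was 0.27. On bts-3 +Fe the SDs were 0.45 and 0.50 against a median of 0.21. On WT -Fe they were 0.07 and 0.22 against 0.18, and on WT +Fe 0.09 and 0.001 against 0.14. Replicate 3 accounted for the lowest bts-3 value of both genes on both media. The tests below use 1 limma fit of all 10 arrays, so that this spread enters every comparison, the WT comparison included, and p-values are adjusted over the 17481 probe sets by Benjamini-Hochberg.

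In WT, both genes had higher levels without iron. BTSL1 differed by 2.40 on the log2 scale (95% interval 1.49 to 3.31), a 5.29-fold difference. BTSL2 differed by 1.95 (95% interval 0.90 to 3.01), or 3.88-fold. These were the 46th and the 67th highest log2 fold changes of the 17481. Between WT arrays of the same number the difference was 2.52 and 2.29 for BTSL1 and 2.11 and 1.80 for BTSL2. Such WT arrays did not deviate together (r = -0.107), so these are not differences of matched pairs. Neither passed the threshold of 0.05 in the fit of all arrays (limma adjusted p = 0.0964 and 0.242, unadjusted p = 0.000132 and 0.00188), where 0.0286% of all probe sets were called. WT arrays of both genes did not overlap between media, as was also so for 23.2% of all probe sets in this direction.

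The call in WT depended on how the spread of the bts-3 arrays was treated. With bts-3 arrays of the same number taken as pairs, a replicate block in bts-3 alone, both genes rose in WT at the same fold changes (limma adjusted p = 0.00245 for BTSL1 and 0.00901 for BTSL2). When only the 4 WT arrays were fitted, both rose as well (limma adjusted p = 0.00253 and 0.00875). The block in bts-3 alone called 106 probe sets in WT and the fit of the WT arrays 157, against 5 in the fit of all arrays. Both genes also rose without bts-3 replicate 3 on both media (limma adjusted p = 0.00269 and 0.00781). That setting and the block in bts-3 alone were chosen after seeing the data. No setting that left out 1 WT array gave a call.

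In bts-3, the difference between media was small beside its error. BTSL1 differed by 0.21 (95% interval -0.54 to 0.95) and BTSL2 by 0.37 (95% interval -0.49 to 1.23), -Fe against +Fe, with limma adjusted p of 0.9997 for both, where 0.0229% of all probe sets were called. The pairs did not share a direction. In replicate 1 the difference was 0.71 for BTSL1 and 0.86 for BTSL2, in replicate 2 it was 0.02 and 0.37, and in replicate 3 it was -0.10 and -0.12. With the replicate block in bts-3 alone neither gene passed (limma adjusted p = 0.853 and 0.710). The BTSL1 difference changed sign when 1 array was left out, to -0.10 without bts-3 -Fe replicate 1 and to -0.04 without bts-3 +Fe replicate 3. The intervals do not show that iron supply was without effect in bts-3, since they reach close to 1 on the log2 scale for BTSL1 and beyond it for BTSL2.

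With iron present, the means of both genes were higher in the mutant. BTSL1 differed by 1.57 (95% interval 0.74 to 2.40), a 2.97-fold difference, and BTSL2 by 0.87 (95% interval -0.09 to 1.83), or 1.82-fold. Neither passed in the fit of all arrays (limma adjusted p = 0.146 and 0.617, unadjusted p = 0.00166 and 0.0723), where 0.269% of all probe sets were called. No bts-3 +Fe array overlapped with WT +Fe for either gene, as for 13.5% of all probe sets in this direction. With the replicate number as a block shared by both genotypes BTSL1 was called, at 1.90 (limma adjusted p = 0.00939), and BTSL2 was not, at 1.25 (limma adjusted p = 0.0716). This block called 118 probe sets on +Fe, against 47 in the fit of all arrays. Same-numbered WT and bts-3 arrays deviated together on -Fe (r = 0.30 and 0.26 for replicates 1 and 2) and not on +Fe (r = -0.03 and -0.07), so whether the numbers pair arrays across genotypes is not settled. Without bts-3 replicate 3 on both media, BTSL1 was higher by 1.82 and called (limma adjusted p = 0.0111), and BTSL2 was higher by 1.13 and not called (0.107). This setting was chosen after seeing the data. It leaves out the lowest bts-3 array of both genes on each medium, which raises the difference and narrows the spread.

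Without iron, the means of both genes were lower in the mutant, and neither difference passed. BTSL1 differed by -0.63 (95% interval -1.46 to 0.21) and BTSL2 by -0.72 (95% interval -1.68 to 0.24), with limma adjusted p of 0.759 for both. No probe set of the 17481 was called here with limma (0%), while 2.92% had an unadjusted p under 0.05 in the higher and 3.74% in the lower direction. The bts-3 arrays of BTSL2 lay below both WT arrays, as for 11.3% of all probe sets. The size rested in part on replicate 3: without it on both media the differences were -0.22 for BTSL1 and -0.21 for BTSL2.

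**Figure D2:**
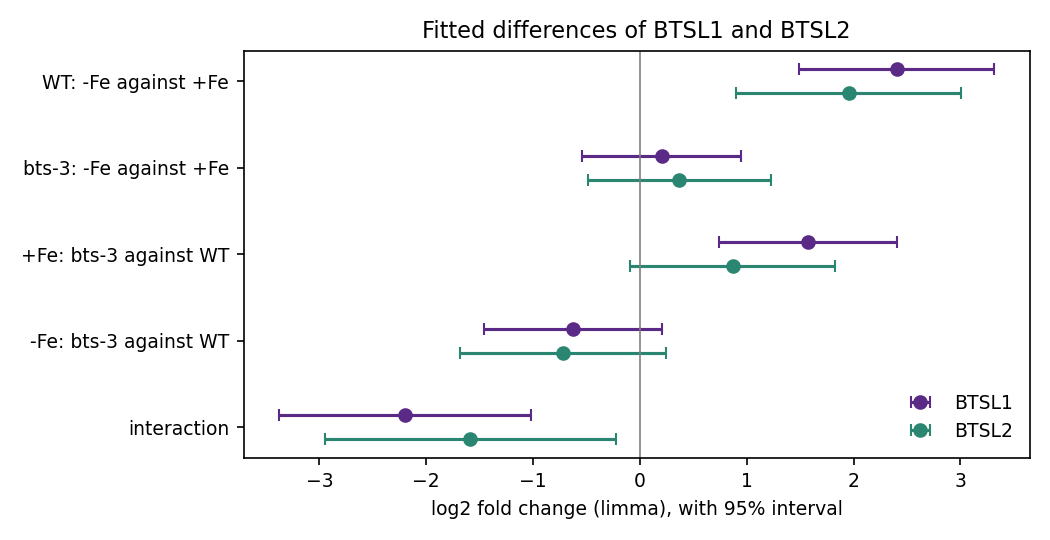
Fitted log2 fold changes of BTSL1 and BTSL2 in the 5 comparisons (points) with 95% intervals (bars), from the limma fit of all 10 arrays. The intervals of the WT comparison lie above 0 and those of the interaction below 0 for both genes, and the intervals of bts-3 -Fe against +Fe and of bts-3 against WT on -Fe include 0.

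The iron response was smaller in bts-3 than in WT by the values of both genes. The difference of the responses (interaction, bts-3 minus WT) was -2.20 for BTSL1 (95% interval -3.37 to -1.02) and -1.59 for BTSL2 (95% interval -2.94 to -0.23). These were the 54th and the 123rd lowest of the 17481. Neither passed over all probe sets (limma adjusted p = 0.732 and 0.998, unadjusted p = 0.0018 and 0.0262), where 0.00572% were called. With the replicate block in bts-3 alone BTSL1 was called at the same value (limma adjusted p = 0.0296) and BTSL2 was not (0.13). That block was chosen after seeing the data. With the replicate block shared by both genotypes BTSL1 was called (limma adjusted p = 0.0449) and BTSL2 was not (0.215). With separate blocks within each genotype BTSL1 was not called (limma adjusted p = 0.0854). In the order of these blocks 35, 18 and 9 probe sets were called, against 1 in the fit of all arrays.

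The bts-3 levels can be placed on the distance between the 2 WT means, with WT +Fe at 0% and WT -Fe at 100%. This is a description that uses the WT arrays for both ends. BTSL1 on bts-3 +Fe was at 70.1%, 81.5% and 44.7% in replicates 1 to 3, and BTSL2 at 47.2%, 68.3% and 17.5%. On bts-3 -Fe BTSL1 was at 99.5%, 82.1% and 40.3%, and BTSL2 at 91.1%, 87.2% and 11.3%. BTSL1 therefore stood nearer to the WT -Fe level than BTSL2 did on all 3 +Fe arrays. On -Fe this was so in replicates 1 and 3, and in replicate 2 BTSL2 was the nearer.

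Levels of different probe sets cannot be set against each other on an array, but changes in their difference can. The log2 value of BTSL1 minus that of BTSL2 was 0.83 and 0.96 on WT +Fe, and 1.24 and 1.45 on WT -Fe. It was 1.66, 1.52 and 1.63 on bts-3 +Fe, and 1.50, 1.16 and 1.64 on bts-3 -Fe. The WT +Fe arrays were thus the lowest 2 of the 10. WT -Fe and bts-3 +Fe did not overlap, and bts-3 -Fe overlapped with each of them. The iron effect on this difference, as a mean of 0.45 in WT and -0.16 in bts-3, was 0.14 (exact permutation test within genotypes, two-sided p = 0.4, smallest possible 0.0167). The effects in WT and bts-3 have opposite signs and partly cancel in the mean, so this test does not bear on WT alone. The genotype effect, bts-3 minus WT, was 0.71 on +Fe and 0.09 on -Fe, with a mean of 0.40 (exact permutation test within media, two-sided p = 0.05, smallest possible 0.01). That p is not under the threshold of 0.05, and for these 2 tests together the p-values adjusted by Benjamini-Hochberg are 0.4 and 0.1. An unequal change between probe sets can also come from their different range, which was not tested.

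Across the 10 arrays the 2 genes moved together. Pearson's r was 0.951 and Spearman's rho 0.988, and r was 0.979 without the 2 arrays farthest from the BTSL1 median. After each group mean was removed, r of the deviations was 0.968 over the 10 arrays. A high r of this kind was not particular to the 2 genes. With BTSL1 and BTSL2 it was 0.925 and 0.939 for the reference gene GAPC2. For the reference genes SAND and TIP41 it was -0.224 and -0.136, and 0.012 and -0.085. Arrays of a group share genotype and medium, so these are descriptions, with no test. Among 16721 other single-gene probe sets BTSL2 ranked 22 by r with BTSL1, and BTSL1 ranked 15 by r with BTSL2. By Spearman's rho the ranks were 1 (shared with BGLU42) and 2, so the rank depended on the measure.

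**Figure D3:**
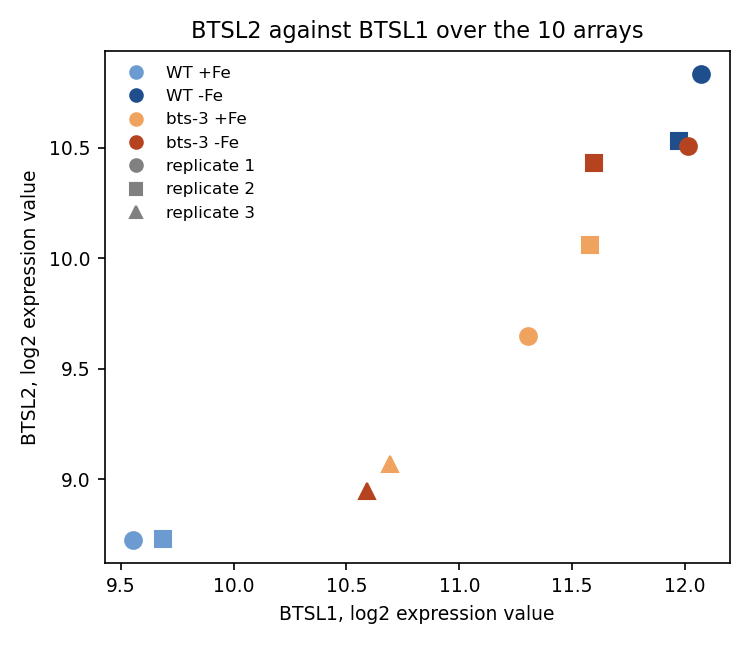
Log2 expression value of BTSL2 (vertical axis) against that of BTSL1 (horizontal axis) on the 10 arrays, coloured by group, with symbols for the replicate number. The points follow 1 rising band (r = 0.951), with WT +Fe at its lower end, the replicate 3 arrays of bts-3 next, and WT -Fe with bts-3 -Fe replicate 1 at its upper end.

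The proteins reported as partners or substrates of these ligases form the first group of the pathway, with 5 of 7 genes measured. No member was called in any of the 5 comparisons. The IRON MAN genes IMA1 and IMA2 encode short peptides that shield other proteins from these ligases. IMA1 had log2 values of 3.82 and 3.69 on WT +Fe and of 5.94 and 7.41 on WT -Fe, with 4.72, 4.73 and 4.20 on bts-3 +Fe and 8.17, 5.76 and 4.83 on bts-3 -Fe. Its log2 fold change was 2.92 in WT (SE 0.84) and 1.70 in bts-3 (SE 0.69). IMA2 had values of 4.32 (SE 0.89) and 2.12 (SE 0.72). Both peptide genes were higher on -Fe in all 3 bts-3 pairs, by 3.44, 1.02 and 0.63 for IMA1 and by 4.13, 0.87 and 1.37 for IMA2.

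The other measured partners were transcription factors. ILR3, a factor upstream of the iron-deficiency response, had log2 fold changes of 0.56 in WT (SE 0.22) and 0.21 in bts-3 (SE 0.18). BHLH115 had values of 0.44 (SE 0.24) and 0.24 (SE 0.20), and BHLH104 of -0.56 (SE 0.24) and -0.07 (SE 0.20). The median of the 5 partners in WT was 0.56, where that of all probe sets was 0.01, and their median for bts-3 against WT on +Fe was 0.10, against -0.01. The 3 factors thus lay between -0.56 and 0.56 in WT, where the ligase genes had 2.40 and 1.95. BHLH34 and BHLH121, the other measured upstream bHLH factors (5 of 6 measured, ILR3, BHLH104 and BHLH115 included), differed in WT by -0.70 (SE 0.42) and by 0.15 (SE 0.34) on the log2 scale. The 5 had a median of 0.15 in WT and none was called in any comparison.

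Of 7 iron-regulated bHLH and MYB genes 2 were measured. BHLH101, a transcription factor gene strongly induced by iron shortage, rose in WT by 4.46 on the log2 scale (limma adjusted p = 0.0378, SE 0.54). On +Fe it was higher in bts-3 than in WT by 3.71 (limma adjusted p = 0.0157, SE 0.50). PYE, a bHLH repressor of iron genes, had values of 0.92 (SE 0.31) and 0.70 (SE 0.28) and was not called. On the distance between the WT means, bts-3 +Fe stood at 83.1% for BHLH101 and 75.9% for PYE, above the 65.4% of BTSL1 and the 44.3% of BTSL2.

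Of 14 uptake and coumarin genes downstream of FIT 4 were measured, none was called in any comparison, and their median log2 fold change in WT was 5.02. S8H makes the iron-mobilising coumarin fraxetin, BGLU42 cleaves sugars from coumarins, COSY is coumarin synthase, and MTP8 moves manganese into the vacuole. On bts-3 +Fe they stood at 69.1% (S8H), 44.0% (BGLU42), 37.2% (MTP8) and 3.85% (COSY) of the WT distance. COSY had 2 probe sets, and all its values here come from 1 of them. BTSL1 was thus close to S8H in this measure and BTSL2 close to BGLU42. In replicate 3 of bts-3, S8H was lower on -Fe than on +Fe by 1.64 and BGLU42 by 0.27, as the BTS-like genes were, whereas MTP8 was higher by 0.19.

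Over the 3 lists, 9 measured genes other than the ligases had a higher WT mean on -Fe at an unadjusted limma p under 0.05, which 4.90% of all probe sets reached in that direction. Of these 9, the value on -Fe exceeded that on +Fe in 9 genes in bts-3 pair 1, in 5 in pair 2 and in 6 in pair 3. Over all probe sets the shares were 51.1%, 54.7% and 52.6%. The median difference of the 9 was 1.26, 0.64 and 0.18 in pairs 1 to 3. BTSL1 and BTSL2, at 0.71 and 0.86, 0.02 and 0.37, and -0.10 and -0.12, were below that median in every pair. These differences are not scaled to the WT response of each gene. That response was 2.40 for BTSL1 and 1.95 for BTSL2, and from 0.56 (ILR3) to 6.19 (S8H) among the 9.

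**Figure D4:**
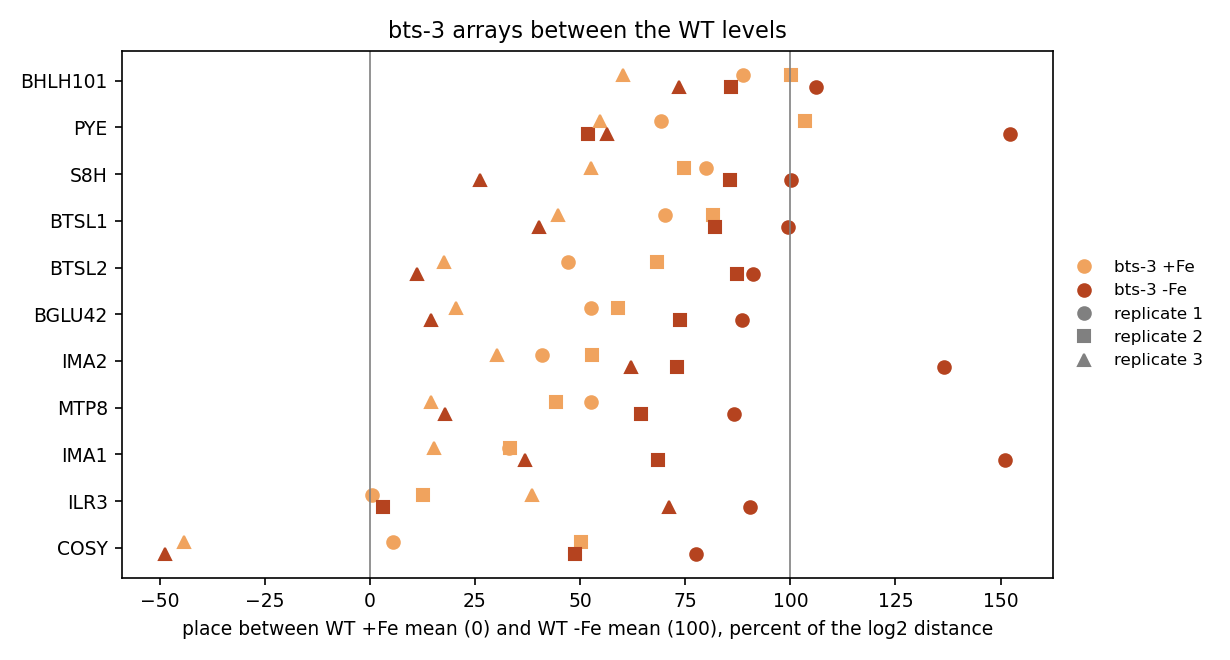
Place of each bts-3 array between the WT +Fe mean (0) and the WT -Fe mean (100), in percent of the log2 distance, for BTSL1, BTSL2 and the 9 iron genes, ordered by their bts-3 +Fe mean. Colours give the medium and symbols the replicate number. BTSL1 and BTSL2 lie in the upper middle of the order, and replicate 3 is the lowest array for both on each medium.

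Other ligases with a CHY-type zinc finger and a RING domain but without hemerythrin domains served as a comparison, with 2 of 4 measured. AT5G25560 had log2 fold changes of -0.33 in WT (SE 0.34) and 0.14 for bts-3 against WT on +Fe (SE 0.31). AT3G62970 had values of -0.16 (SE 0.25) and -0.11 (SE 0.23). Neither was called in any comparison. The genes next to BTSL1 and BTSL2 on the chromosome also showed smaller values. For BTSL1 the nearest measured neighbours AT1G74750 and AT1G74780 differed in WT by -0.07 (SE 0.19) and by 0.40 (SE 0.25), and for BTSL2 AT1G18900 and AT1G18940 differed by -0.57 (SE 0.19) and by 0.32 (SE 0.32).

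The genes whose pattern over the 10 arrays was most like BTSL1 were AT4G19370 (r = 0.995), AT5G38820 (0.989), S8H (0.984), UGT72E1 (0.982) and scpl20 (0.980). AT5G38820 is annotated as an amino acid transporter family gene, UGT72E1 glycosylates phenylpropanoids and scpl20 is a serine carboxypeptidase-like gene. For AT4G19370 the place between the WT means was 71.8%, 79.7% and 44.8% on bts-3 +Fe in replicates 1 to 3. On bts-3 -Fe it was 99.9%, 74.6% and 44.7%. This place rescales the values by which the gene was picked, so it is not a separate sign of likeness. The log2 fold change of AT4G19370 in WT was larger than that of BTSL1, at 3.90 (SE 0.59). None of the 5 was called in any comparison.

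For BTSL2 the most similar patterns were those of BGLU42 (r = 0.989), AT3G61410 (0.974), scpl20 (0.971), AT4G17680 (0.967) and AT3G61930 (0.967). BGLU42 put all 10 arrays in the same order as BTSL2 (Spearman's rho = 1). Only scpl20 was among the first 5 for both genes. The 5 had log2 fold changes in WT from 2.08 (AT3G61410) to 4.82 (AT4G17680), all above the 1.95 of BTSL2, and none was called in any comparison. The most opposite patterns were AT3G26040 (r = -0.959), AT4G37550 (-0.938) and AT1G73820 (-0.934) for BTSL1. For BTSL2 they were AT5G14940 (-0.937), AT5G10320 (-0.927) and LHCB4.2 (-0.917), which encodes a chlorophyll-binding protein of the photosynthetic antenna.

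**Figure D5:**
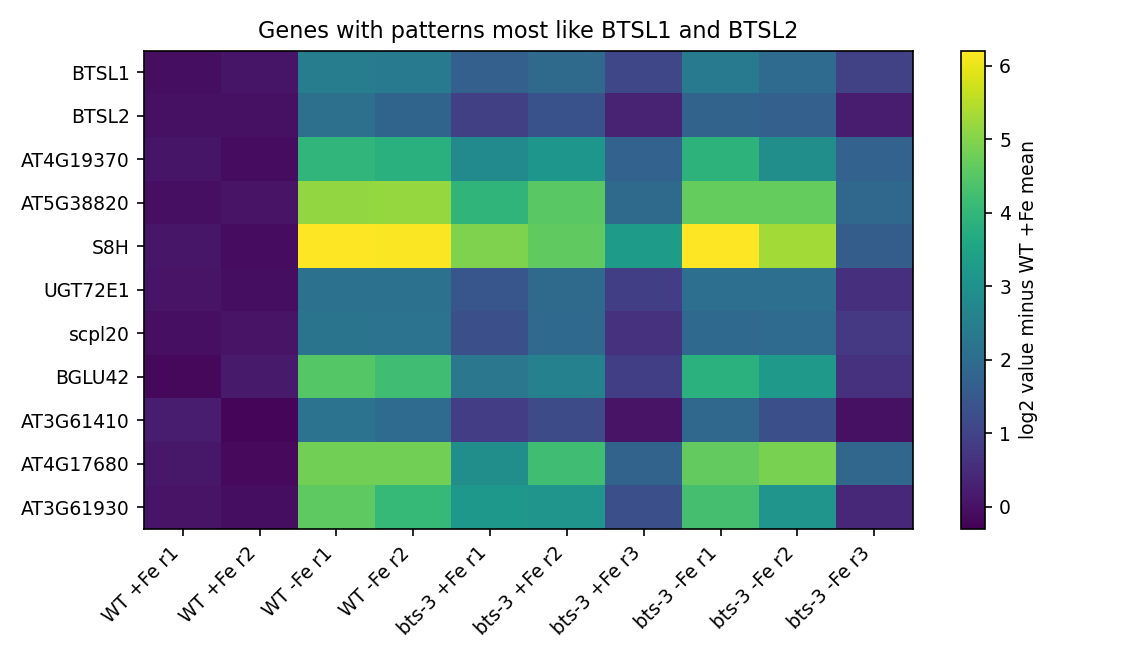
Log2 value minus the mean of the 2 WT +Fe arrays (colour scale) for BTSL1, BTSL2 and the genes with the highest Pearson r with either, on the 10 arrays (columns, r1 to r3 being replicates). All are low on WT +Fe and high on WT -Fe, and the replicate 3 columns of bts-3 are the darkest, that is lowest, bts-3 columns of their medium.

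Markers of shoot and of root hair and epidermis also differed between arrays. Of 4 shoot markers 2 were measured, RCA and LHCB4.1, and their mean log2 value lay at 8.03 and 7.55 on the WT +Fe arrays and at 6.81 and 6.41 without iron. It was 7.40 to 7.48 on bts-3 +Fe, and 6.50, 7.19 and 7.53 on bts-3 -Fe replicates 1 to 3. The shoot markers were thus low on the arrays where BTSL1 and BTSL2 were highest. Over the 10 arrays r with BTSL1 and BTSL2 was -0.766 and -0.868 for LHCB4.1, and -0.709 and -0.616 for RCA. After each group mean was removed, r was -0.900 and -0.845 for LHCB4.1, and -0.034 and 0.134 for RCA. Of 4 root hair and epidermis markers 2 were measured, the expansins EXPA7 and EXPA18. Their mean was 8.97 to 9.15 on the 4 WT arrays and 8.52 to 8.74 on bts-3 replicates 1 and 2. It was 7.47 (+Fe) and 8.06 (-Fe) on bts-3 replicate 3, where BTSL1 and BTSL2 were lowest in bts-3. On bts-3 -Fe only EXPA18 was lowest in replicate 3 (8.84, 9.08 and 7.94 in replicates 1 to 3). EXPA7 was lowest there in replicate 2 (8.51, 7.95 and 8.18). Endodermis and vascular markers were not analysed here. Among the reference genes SAND and TIP41 lay between 8.65 and 9.25 on all arrays, and GAPC2 was 10.93 and 10.96 on bts-3 replicate 3 and 11.35 to 11.78 on the others. The part of tissue makeup in the BTSL1 and BTSL2 values was not tested.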

How the data were processed

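The authors deposited 1 log2 expression value per probe set and array, which the submitters' processing notes credit to Affymetrix Expression Console and RMA; version and genome build are not given in the sources used here. Each array took 100 ng of RNA, per the labels' protocols. For arrays, their number limits the precision. Groups came from the sample titles. The platform annotation paired 17481 probe sets with a gene, 16722 of them with exactly 1; 16574 of these matched RefSeq (TAIR10.1), used for names and gene order. The 17481 were fitted with limma 3.58.1 in R 4.3.3 (lmFit, eBayes, 4 group means, 6 residual and 4.57 prior degrees of freedom), two-sided, with Benjamini-Hochberg adjustment within each of 5 comparisons. The fit and the permutation test were tested on simulated data.

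Named genes were BTSL1, BTSL2, every measured gene of the pathway and marker lists, and by Pearson's r the 5 most and 3 least similar genes. Lists of iron storage and internal iron movement genes were not analysed here. Members, lists and tests were chosen with earlier results of these data known. Same-numbered bts-3 arrays deviated together (r = 0.302, 0.511 and 0.389 across probe sets), and the WT numbers (r = -0.107) did not. The labels do not state what a replicate number marks. Taking bts-3 arrays as pairs thus rests on these values alone and is not settled.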

Additional observations from a re-analysis of the deposited data

How the results depend on the processing

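The main fit called neither gene. Log2 fold changes in WT were 2.52 (BTSL1) and 2.07 (BTSL2) with median centring and 2.38 and 1.91 normalized again, with no call, and 2.40 and 1.95 in the other settings with all WT arrays, some gaining calls. With the replicate block limma adjusted p was 0.00346 and 0.0153, with the replicate block within genotype 0.00987 and 0.0268, and in bts-3 alone, without bts-3 replicate 3 or with only the WT arrays as in the report. The last block, the leaving out of replicate 3 and the crossed WT numbers were chosen after seeing the data. BTSL1 in WT was also called with array weights (0.0167), and without bts-3 -Fe replicate 1 (0.0193) or 3 (0.00866), BTSL2 without bts-3 -Fe replicate 3 (0.0274). On +Fe BTSL1 was called with the replicate block (1.90), array weights (1.62, limma adjusted p = 0.024), without bts-3 -Fe replicate 3 (1.57, 0.0444) and without replicate 3 on both media (1.82). The BTSL1 interaction of -2.20 was called with the replicate block (limma adjusted p = 0.0449) and with the block in bts-3 alone. The WT-numbers-crossed block gave 92, 35 and 20 called probe sets for WT, bts-3 and the interaction, with both genes among the 92 only. The replicate block changed no other call of the 2 genes.

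Leaving out each array in turn gave 2.34 to 2.47 (BTSL1) and 1.80 to 2.11 (BTSL2) in WT, -0.10 to 0.61 and 0.10 to 0.88 in bts-3, 1.38 to 1.82 and 0.63 to 1.13 on +Fe, -0.93 to -0.22 and -0.99 to -0.21 on -Fe, and -2.50 to -1.79 and -1.86 to -1.08 for the interaction. The only sign changes were those of BTSL1 in bts-3 (-0.10 and -0.04). For BTSL1 minus BTSL2 the ranges were 0.09 to 0.21 (iron) and 0.35 to 0.47 (genotype), the latter past the threshold without bts-3 -Fe replicate 2 (0.47, exact permutation p = 0.0167). In all, 203 recomputed values kept their direction and their side of the threshold, 23 gained a call and 2 changed sign.

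The background counts of called probe sets, in the order WT, bts-3, +Fe, -Fe and interaction, were 5, 4, 47, 0 and 1. They were 80, 17, 118, 0 and 18 with the replicate block, 101, 10, 279, 0 and 3 with array weights, 4, 10, 78, 0 and 0 over all 28583 probe sets, 9, 7, 59, 0 and 0 with trend and robust variance, 3, 6, 55, 0 and 0 with median centring, 77, 12, 80, 0 and 17 without bts-3 replicate 3 on both media, 5, 5, 50, 0 and 0 normalized again, and 5, 4, 48, 0 and 0 without the dimmest 25%. With only the groups compared they were 157, 1, 101 and 0. For WT, bts-3 and the interaction they were 64, 26 and 9 with the block within genotype and 106, 44 and 35 with the block in bts-3 alone. Leaving out 1 array gave 0 to 88, 1 to 18, 4 to 93, 0 to 8 and 0 to 7. Leaving out a WT array left 1 in its group, which the fit assumed to vary like the other groups.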
